A study of Mus musculus with 27 samples.

Results

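The genes described here are 8 products of intestinal goblet cells other than mucins: the trefoil factor genes Tff3 and Tff1, the lectin gene Zg16, Spink4, Agr2, Fcgbp, Retnlb and the transcription factor gene Spdef. They were chosen by symbol, and all 8 were found among the 23420 genes of the deposited count table. The 27 libraries came from C57BL/6 mice that had received 15% ethanol (EtOH) or water (control) for 8 weeks, and each library was made from colon or jejunum, either as tissue or as organoids grown from the mice. Organoids are epithelial cultures grown apart from the muscle and connective tissue of the gut wall. There were 2 ethanol and 2 control colon organoid libraries, 4 ethanol and 4 control colon tissue libraries, 4 ethanol and 4 control jejunum organoid libraries, and 4 ethanol and 3 control jejunum tissue libraries. The labels give no sex or age and do not say from which part of the colon the samples were taken. Each label carries a donor number from 1 to 4 that recurs under both treatments. The labels do not say which libraries came from separate animals or cultures, so the p-values measure the spread between these libraries, which may in part be technical.

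Goblet cells are secretory cells of the gut epithelium that build the mucus layer, whose main scaffold is the mucin Muc2. The granules also carry small proteins. Tff3 is a trefoil peptide that is stored with Muc2 and is known for its part in epithelial repair, and Tff1 is its relative from the mucous cells of the stomach surface. Zg16 is a lectin that binds Gram-positive bacteria, Fcgbp is a large protein of the mucus gel, and Spink4 belongs to the Kazal-type protease inhibitor family. Agr2 is a protein disulfide isomerase of the endoplasmic reticulum that is needed for the making of Muc2 in mice. Retnlb (RELM-beta) is a resistin-like peptide of colonic goblet cells known to be induced by interleukin-13, and Spdef is an ETS factor that drives goblet cell maturation downstream of Atoh1.

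The promoters of only 3 of the 8 genes were in the RefSeq promoter table (GRCm38.p6), and these are shown. Like other members, these 3 genes differed in level between the colon and jejunum libraries or between organoids and tissue. Each is printed 5′ to 3′ on the gene's own strand and ends shortly after the annotated start. That start is the promoter table's own, and for Agr2 and Spdef it is not the start of the GENCODE model given below. Capitals mark the motifs found on either strand.
Agr2, chr12:35992675-35992974, plus strand: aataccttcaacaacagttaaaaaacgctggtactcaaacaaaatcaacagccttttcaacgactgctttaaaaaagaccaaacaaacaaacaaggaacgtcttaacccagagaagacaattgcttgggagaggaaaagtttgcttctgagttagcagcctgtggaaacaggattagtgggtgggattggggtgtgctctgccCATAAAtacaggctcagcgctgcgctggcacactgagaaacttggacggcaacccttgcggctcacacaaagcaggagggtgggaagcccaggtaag
Fcgbp, chr7:28070986-28071285, plus strand: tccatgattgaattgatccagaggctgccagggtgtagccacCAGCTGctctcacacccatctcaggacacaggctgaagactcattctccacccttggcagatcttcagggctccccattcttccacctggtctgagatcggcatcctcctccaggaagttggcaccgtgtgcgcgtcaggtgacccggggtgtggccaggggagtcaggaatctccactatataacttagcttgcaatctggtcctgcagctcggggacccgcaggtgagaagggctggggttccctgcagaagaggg
Spdef, chr17:27728902-27729201, minus strand: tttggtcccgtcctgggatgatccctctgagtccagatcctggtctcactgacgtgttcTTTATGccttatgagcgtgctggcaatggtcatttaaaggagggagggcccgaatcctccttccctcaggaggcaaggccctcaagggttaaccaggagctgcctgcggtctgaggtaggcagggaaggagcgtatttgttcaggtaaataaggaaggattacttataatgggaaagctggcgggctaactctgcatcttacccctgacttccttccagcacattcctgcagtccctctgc
Of the 5 motifs searched, the E-box CAGCTG was found in the Fcgbp promoter at -208 from the annotated start. The CDX-type motif CATAAA, which was chosen after the sequences had been seen, was found at -47 in Agr2 and, as its reverse complement TTTATG, at -191 in Spdef. The TATA box letters TATAAA, the forkhead motif TGTTTAC and the ETS core letters CGGAT were not in these windows. Among 32851 promoters of the table, 16.3% held CAGCTG and 11.9% held CATAAA. The TATA box letters were in 13.6%, the forkhead motif in 3.65% and the ETS core in 16.3%. The motifs do not overlap each other in these windows, and a match describes the letters only.

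In GRCm38 (GENCODE vM21), Tff3 (chr17:31125306-31129646) and Tff1 (chr17:31161395-31165277) lie on the minus strand with Tff2 between them. Zg16 (chr7:127050156-127087328) is on the minus strand, Spink4 (chr4:40920052-40931395), Agr2 (chr12:35992907-36004087), Fcgbp (chr7:28071236-28120862) and Retnlb (chr16:48816856-48818892) are on the plus strand, and Spdef (chr17:27714352-27728955) is on the minus strand. The Tff1 model overlaps the antisense gene Gm15318, and the Zg16 model overlaps the plus-strand genes Gm44939 and Gm22747, none of which is in the table. No source used here says whether the counting used strand, so reads of those antisense genes cannot be told apart from those of Tff1 and Zg16.

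The libraries held between 1337068 and 16312562 counts. The ribosomal RNA precursor gene Rn45s took 18.3% to 84.3% of them. Its share was 76.3% to 84.3% in control and 53.4% to 80.8% in ethanol jejunum tissue, against 18.3% to 48.3% in the other groups. The part of this in the comparisons with jejunum tissue was not tested. All levels here are CPM, counts scaled to a library total of 1000000 outside Rn45s. What remained was 684906 to 7606668 counts per library, with the fewest in control jejunum tissue (684906 to 1510057) and control colon organoids (818240 and 2036195). The control colon organoid libraries also had the fewest detected genes, 9950 and 11779, against 13541 and 15382 in the ethanol colon organoids. The markers of Paneth cells, which are cells of the small intestine, summed to 3627 to 17880 CPM in the jejunum libraries and to 13.5 to 232 CPM in the colon libraries. In colon tissue 3 of the 8 libraries (ethanol 1, ethanol 2 and control 1) had 182, 801 and 183 CPM of the posterior homeobox gene Hoxb13 while the other 5 had at most 0.274 CPM. The sum of 6 smooth muscle genes was also 19040 CPM in ethanol 1 and 14030 CPM in control 1, against 3346 to 4176 CPM in the remaining colon tissue libraries. These libraries are carried through the colon tissue results below. Among colon organoids, Hoxb13 was at 37.89 CPM in control 2 and at 0 in the other libraries. The sum of 6 connective tissue genes was 116.1 CPM in control 2 and 17.84 to 19.69 CPM in the others. Immune genes summed to 59.88 and 90.86 CPM in the control and at least 130.8 CPM in the ethanol colon organoids. In jejunum organoids that sum was at most 4.562 CPM. The part of these differences in the colon organoid results was not tested. The protocol primes at the 3′ end of transcripts, so a level is a number of tags and needs no length correction to be set beside that of another gene.

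**Figure D1:**
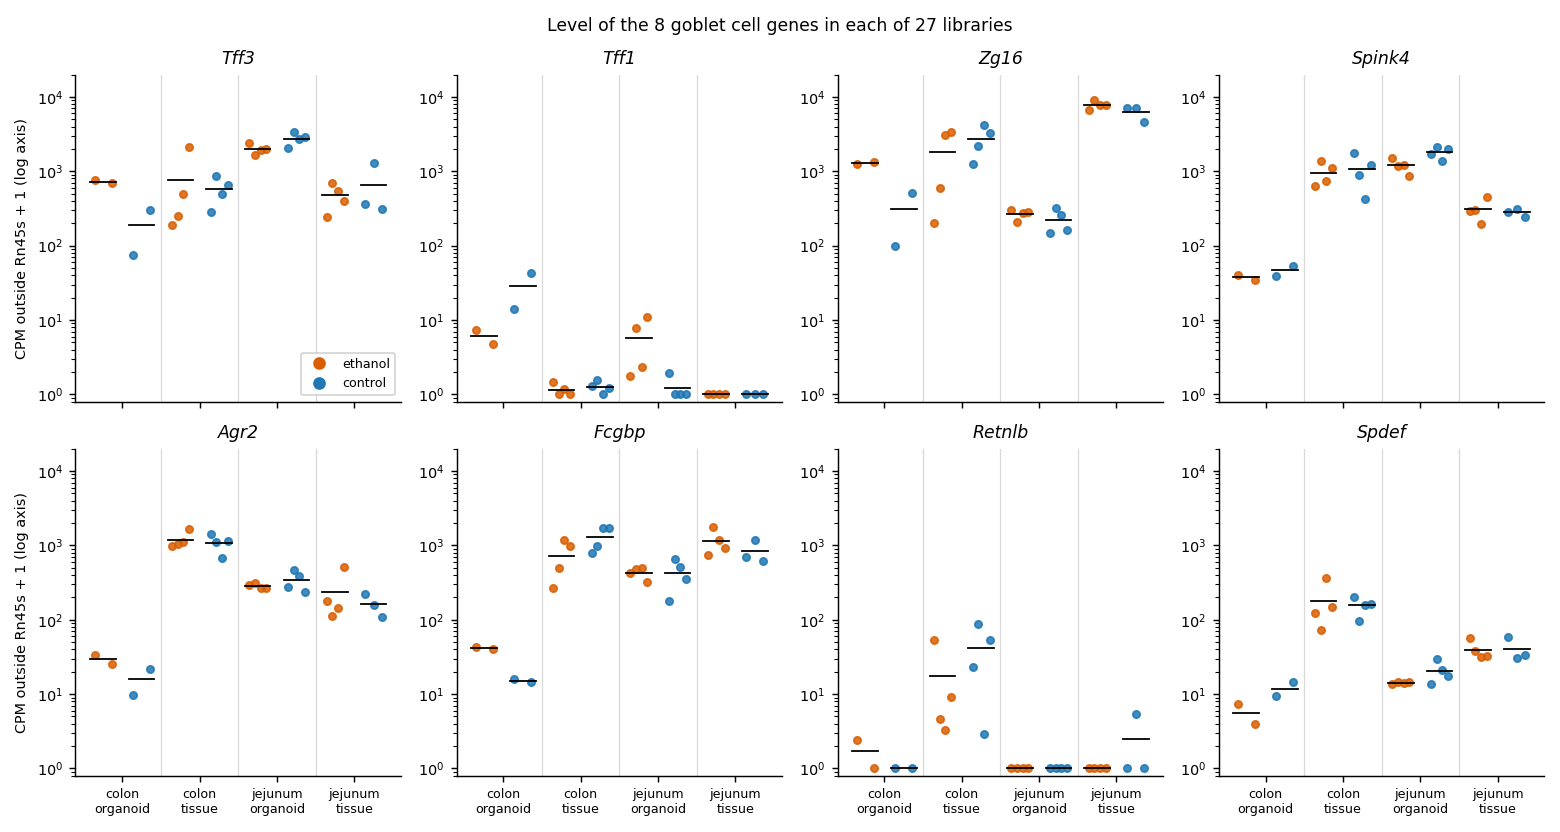
Level of each of the 8 genes in every library, as CPM outside Rn45s plus 1 on a log axis, with ethanol (orange) left of control (blue) in each pair and bars at the group mean. Zg16 in jejunum tissue is the highest, with means of 7832 CPM (ethanol) and 6276 CPM (control), and Retnlb and Tff1 are at 0 counts in many libraries.

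The levels of the 8 genes had no common order across the 8 groups. Zg16 was the gene with the highest mean in both jejunum tissue groups, 7832 ± 1086 CPM with ethanol and 6276 ± 1497 CPM in controls (SD, n = 4 and 3), where it ranked 8 among all genes. In jejunum organoids it averaged 265 ± 41.4 CPM with ethanol and 222 ± 82.1 CPM in controls, and Tff3 led with 1972 ± 301 CPM and 2735 ± 531 CPM (SD, n = 4 each). Zg16 also led in colon tissue (1823 ± 1654 CPM with ethanol, 2720 ± 1269 CPM in controls, n = 4 each) and in colon organoids (1283 ± 45.4 CPM and 305 ± 294 CPM, n = 2 each). The SD of Zg16 in ethanol colon tissue was nearly as large as its mean, so its place above Agr2 (1192 ± 303 CPM) in that group does not exceed the spread.

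The sum of the 8 genes was 10030 ± 1667 CPM in ethanol jejunum tissue and 8243 ± 2182 CPM in control jejunum tissue. It was 4168 ± 532 CPM in ethanol jejunum organoids and 5552 ± 1070 CPM in control jejunum organoids, 5660 ± 3147 CPM in ethanol colon tissue and 6936 ± 1138 CPM in control colon tissue, and 2122 ± 16.97 CPM in ethanol colon organoids and 605 ± 497 CPM in control colon organoids. The make-up of the sum was not the same in each group. Zg16 alone was 78.3% of the sum in ethanol jejunum tissue and 76.6% in control jejunum tissue. In jejunum organoids Zg16 was 6.38% with ethanol and 3.95% in controls, while Tff3 was 47.3% and 49.2% and Spink4 28.7% and 32.9%. Colon tissue was the most even, with Agr2 at 25.2% and Spink4 at 21.0% in the ethanol libraries and at 16.5% and 16.4% in the controls. In single libraries the ratio of Zg16 to Tff3 ran from 13.1 to 27.5 in ethanol jejunum tissue and 5.51 to 19.7 in control jejunum tissue, but from 0.126 to 0.144 in ethanol jejunum organoids and 0.0560 to 0.0970 in control jejunum organoids. For the level of a single gene in these bulk samples, fewer goblet cells and less RNA per goblet cell cannot be told apart.

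**Figure D2:**
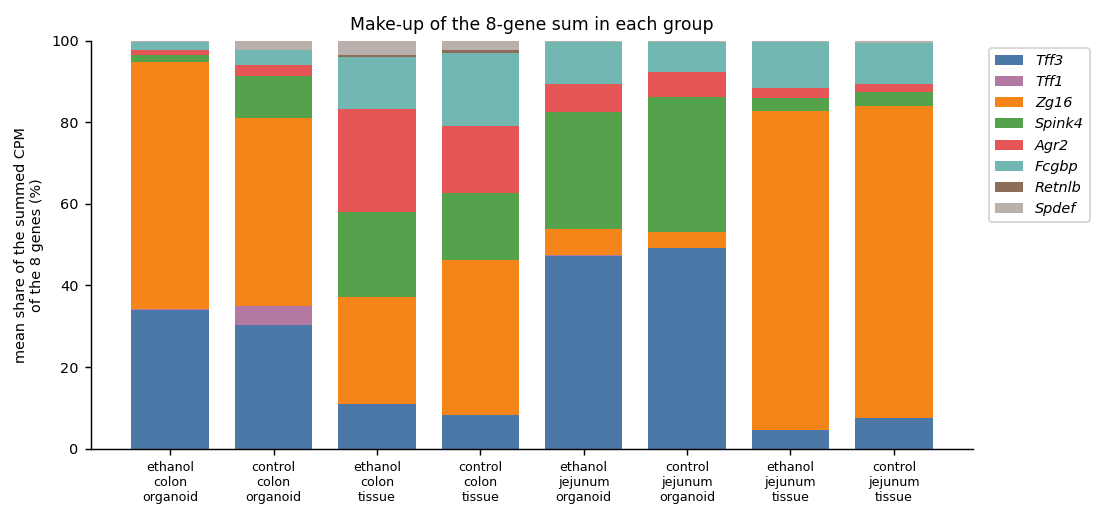
Mean share (%) of each gene in the summed CPM of the 8 genes, by group, with each ethanol group left of its control. Zg16 fills 78.3% (ethanol) and 76.6% (control) of the bar in jejunum tissue, and Tff3 fills 47.3% and 49.2% in jejunum organoids.

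The first question was whether ethanol feeding altered these genes, and it was put separately to each segment and sample type with edgeR's quasi-likelihood test and Benjamini-Hochberg adjustment over all tested genes, a gene being called at an adjusted p under 0.05. In colon organoids Tff3 had 755 and 691 CPM in the ethanol libraries, against 73.2 and 302 CPM in the controls, a log2 difference of 2.28 ± 0.66 (SE; edgeR adjusted p = 0.63). Zg16 had 1251 and 1315 CPM with ethanol and 97.2 and 513 CPM in controls, a log2 difference of 2.40 ± 0.74 (edgeR adjusted p = 0.63). Both ethanol libraries lay above both controls for these 2 genes, and the control libraries differed from each other by over 4 times. With 2 libraries a group a separation carries little weight. The share of all tested genes that separated, for these and the genes below, was not counted. The mean of Fcgbp, the mucus gel protein, was 40.8 ± 1.98 CPM with ethanol and 14.1 ± 0.91 CPM in controls, and that of Agr2 28.4 ± 5.53 CPM and 14.8 ± 8.44 CPM (SD, n = 2 each). Their ranges did not overlap, with log2 differences of 1.78 ± 0.90 and 1.25 ± 1.10 (edgeR adjusted p = 0.73 and 0.949).

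Not every member lay higher with ethanol. Tff1 had 6.33 and 3.72 CPM (18 and 5 counts) in ethanol colon organoids and 13.3 and 41.6 CPM (27 and 34 counts) in controls. Spdef had 6.33 and 2.97 CPM (18 and 4 counts) against 8.35 and 13.4 CPM (17 and 11 counts). For both genes the ethanol libraries were the lower ones, with log2 differences of -2.10 ± 1.49 and -0.91 ± 1.74. Spink4 overlapped, at 39.7 and 33.5 CPM with ethanol and 38.3 and 52.6 CPM in controls, and Retnlb had 4 counts in 1 ethanol library and 0 in the 3 others.

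None of the 7 tested genes was called in colon organoids, where 0% of 10823 tested genes were called by edgeR, 851 had an unadjusted p under 0.05 and 134 were called by DESeq2. Their median log2 difference was 1.25, against 0.12 over all tested genes. Muc2 averaged 1166 ± 421 CPM with ethanol and 358 ± 431 CPM in controls, the goblet gene listed as Clca3 (now named Clca1) 154 ± 7.31 CPM and 113 ± 142 CPM, and Atoh1 7.74 ± 1.49 CPM and 0.246 ± 0.347 CPM, and none of these was called. Among other goblet lists, 0 of 6 tested goblet transcription factor genes, 0 of 7 mucin folding and glycosylation genes and 0 of 10 other goblet secretory genes were called, with medians of 0.15, 0.63 and 0.98. Markers of absorptive colonocytes summed to 8012 and 11620 CPM in the ethanol libraries and to 976 and 1841 CPM in the controls, with 0 of 5 called; their part in the values of Tff3 and Zg16 was not tested. These calls changed with the method and the libraries used. Tff3 and Zg16 were called with one spread for all 12 organoid libraries (adjusted p = 0.00626 and 0.0128, together with Agr2 and Fcgbp), without the filter on low counts, by DESeq2, by limma-voom with weights by group and without either control library. They were not called without either ethanol library.

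**Figure D3:**
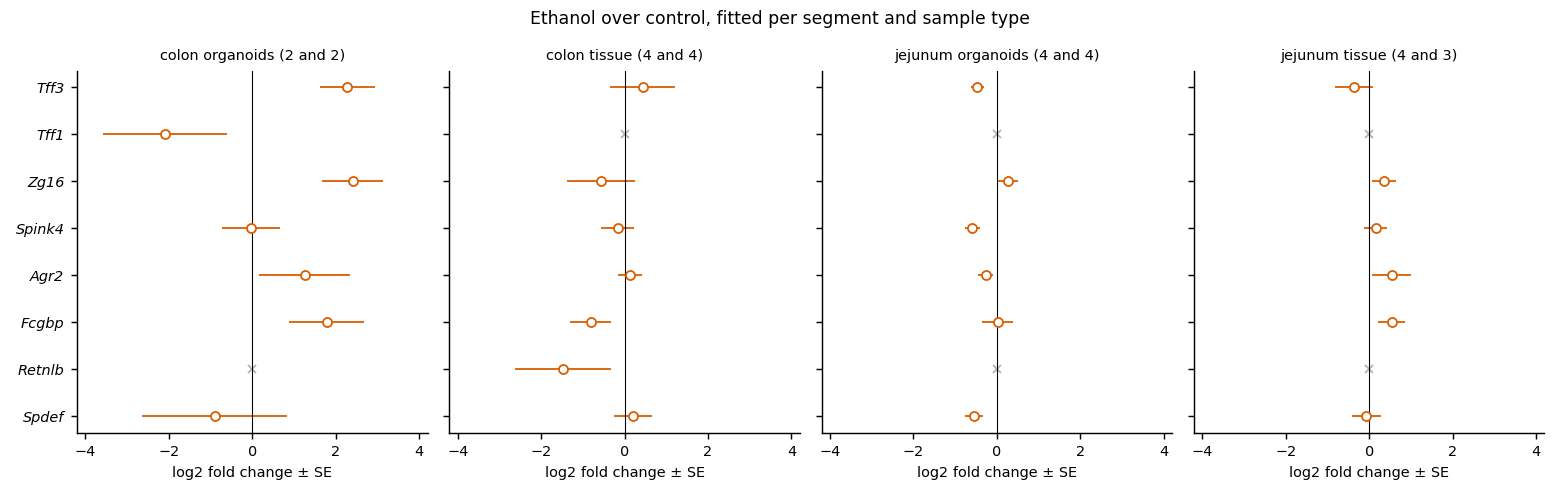
log2 fold change of ethanol over control (points) with its SE (bars) for each gene in each of the 4 settings, with the numbers of ethanol and control libraries in brackets. Open points did not pass an adjusted p of 0.05, which applies to every point drawn, and a grey cross marks a gene that was not tested or that had 0 counts in 1 of the groups.

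In colon tissue the ethanol and control libraries overlapped for every member. Tff3 had 188, 252, 492 and 2147 CPM with ethanol and 281, 861, 492 and 654 CPM in controls, and the ethanol mean of 770 CPM was set by the fourth library. Zg16 had 199, 601, 3106 and 3384 CPM with ethanol and 1251, 2202, 4180 and 3245 CPM in controls. Retnlb had 51.9, 3.57, 2.34 and 8.06 CPM with ethanol against 22.2, 86.8, 1.92 and 52.2 CPM in controls, so 1 ethanol and 3 control libraries were high. The log2 differences were 0.43 ± 0.79 for Tff3, -0.56 ± 0.82 for Zg16 and -1.47 ± 1.15 for Retnlb, and those of Fcgbp, Spdef, Spink4 and Agr2 were -0.82 ± 0.49, 0.21 ± 0.46, -0.16 ± 0.40 and 0.12 ± 0.29 (SE). The edgeR adjusted p-values of these 7 genes ran from 0.891 to 0.98. None was called, and 0% of 12799 tested genes were called, with 690 at an unadjusted p under 0.05 and 10 called by DESeq2. The median over the 7 members was -0.16, against 0.01 over all tested genes, and 0 of 8 goblet transcription factor genes, 0 of 8 mucin folding genes and 0 of 14 other goblet secretory genes were called.

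The 3 colon tissue libraries with Hoxb13 had the lowest Tff3, Zg16 and Fcgbp of the 8, whatever their treatment. Tff3 lay between 188 and 281 CPM in those 3 libraries and between 492 and 2147 CPM in the other 5. Zg16 lay between 199 and 1251 CPM against 2202 to 4180 CPM, and Fcgbp between 263 and 783 CPM against 971 to 1688 CPM. Clca3 showed the same separation, 211 to 591 CPM against 693 to 1489 CPM. Spink4, Agr2, Spdef, Retnlb and Muc2 overlapped between the 2 sets, with Spink4 at 631 to 1750 CPM in the Hoxb13 libraries and 424 to 1220 CPM in the others. The 5 colonocyte markers separated too, with sums of 2560 to 5140 CPM in the Hoxb13 libraries and 18190 to 30050 CPM in the others, and so did the 9 mucin folding and glycosylation genes, with sums of 453 to 912 CPM against 1083 to 1552 CPM. These libraries were grouped by a measured gene, so no test was made. The share of all genes that separated the 2 sets was not counted, so the separation is not shown to be particular to these members. The part of Hoxb13, of colonocytes or of smooth muscle in these values was not tested. With the 3 libraries left out, 0 members were called for ethanol in colon tissue and 88 genes in all, Zg16 had a log2 difference of 0.03 ± 0.25 and Fcgbp of -0.41 ± 0.23.

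**Figure D4:**
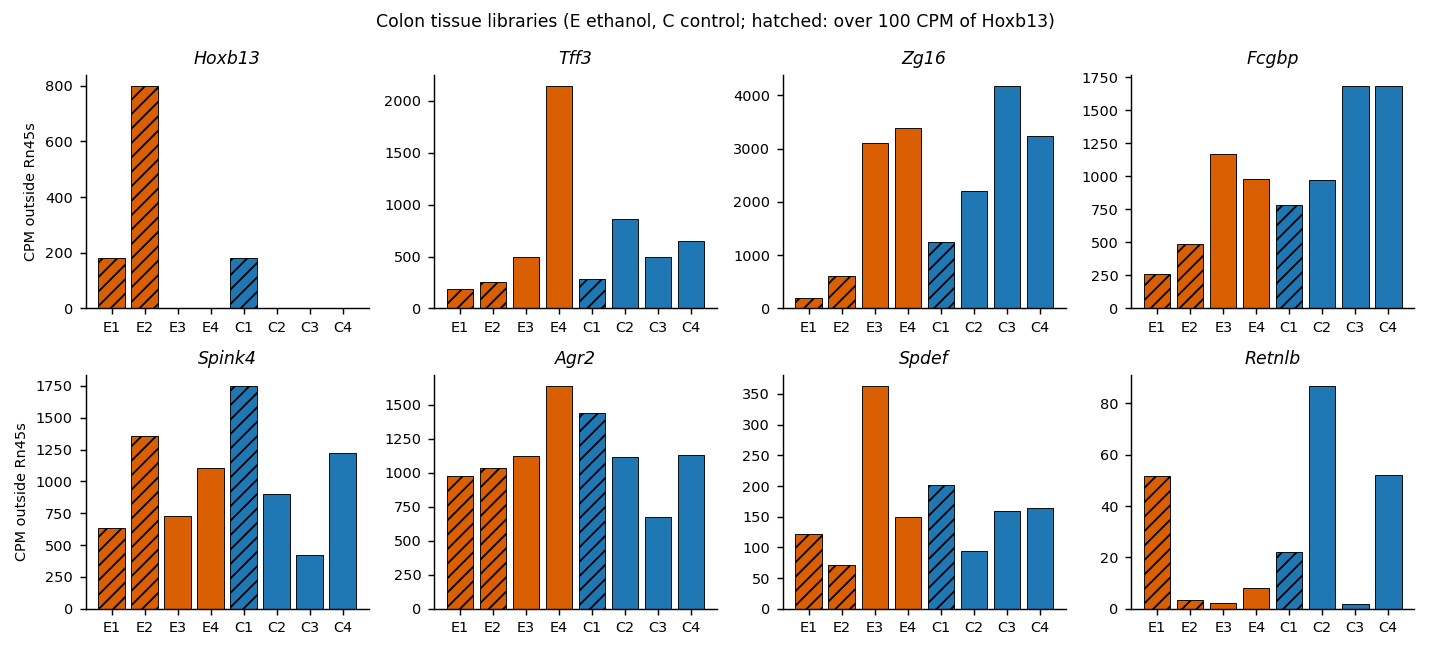
CPM outside Rn45s in the 8 colon tissue libraries, ethanol (E1 to E4) left of control (C1 to C4), with libraries over 100 CPM of Hoxb13 hatched. In Tff3, Zg16 and Fcgbp the 3 hatched bars are the lowest (at most 281, 1251 and 783 CPM), and in Spink4, Agr2, Spdef and Retnlb they overlap the others.

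In jejunum organoids no member passed the test for ethanol. Spink4 had 1522, 1187, 1225 and 875 CPM with ethanol and 1709, 2125, 1383 and 2007 CPM in controls. Tff3 had 2364, 1636, 1904 and 1983 CPM with ethanol and 2053, 3337, 2686 and 2863 CPM in controls. Spdef had 12.8, 13.5, 13.2 and 13.7 CPM with ethanol and 12.7, 28.9, 20.4 and 16.3 CPM in controls. In all 3 genes most ethanol libraries were below most controls, but the ranges overlapped, and the log2 differences of -0.59 ± 0.18, -0.47 ± 0.15 and -0.55 ± 0.22 (SE) did not pass (edgeR adjusted p = 0.602, 0.602 and 0.66). Agr2 averaged 284 ± 23.2 CPM with ethanol and 344 ± 108 CPM in controls, Fcgbp 427 ± 77.4 CPM and 425 ± 208 CPM, and Zg16 265 ± 41.4 CPM and 222 ± 82.1 CPM (SD, n = 4 each).

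Tff1, the stomach-type trefoil gene, was under the filter on low counts in jejunum organoids. It had 4, 30, 4 and 34 counts in the ethanol libraries and 5, 0, 0 and 0 in the controls, and the ranges overlapped. None of the 6 tested members was called in jejunum organoids, and 0% of 10640 tested genes were called, with 759 at an unadjusted p under 0.05 and 9 called by DESeq2. The median of the 6 members was -0.37, against a median of 7e-04 over all tested genes. The list medians were -0.24 for 8 goblet transcription factor genes, -0.15 for 7 mucin folding genes and -0.35 for 14 other goblet secretory genes, with 0 called. Klf4, a factor of goblet cell differentiation, averaged 76.3 ± 7.05 CPM with ethanol and 131 ± 46.9 CPM in controls, with no overlap (log2 difference -0.78 ± 0.20, edgeR adjusted p = 0.602). Atoh1 and Muc2 had 16.8 ± 6.13 CPM and 201 ± 26.1 CPM with ethanol, and 24.5 ± 5.76 CPM and 131 ± 52.6 CPM in controls. The Paneth marker sum was 8605 to 15560 CPM with ethanol and 12320 to 17880 CPM in controls, with 0 of 8 called; its part in the values of Spink4 and Tff3 was not tested.

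In jejunum tissue Zg16 had 6575, 9228, 7759 and 7766 CPM with ethanol and 7131, 7148 and 4547 CPM in controls, a log2 difference of 0.35 ± 0.29 (SE; edgeR adjusted p = 0.934). Fcgbp had 745, 1769, 1174 and 910 CPM with ethanol and 687, 1183 and 612 CPM in controls (0.54 ± 0.33, adjusted p = 0.886). Agr2 had 177, 113, 142 and 505.5 CPM with ethanol, with the fourth library apart, and 222, 156 and 109 CPM in controls. The ranges of all members overlapped. Tff3 averaged 472 ± 199 CPM with ethanol and 656 ± 557 CPM in controls, Spink4 308 ± 104 CPM and 281 ± 34.3 CPM, and Spdef 38.7 ± 12.02 CPM and 39.7 ± 15.4 CPM (SD, n = 4 and 3). Tff1 had 0 counts in all 7 libraries, which allows up to 0.166 CPM in the ethanol and 0.84 CPM in the control group at 3 counts over the group, and Retnlb had 3 counts in 1 control library. None of the 6 tested members was called, where 0.01% of 9996 tested genes were called. The member median was 0.26, against 0.09 over all tested genes, and 0 of 7, 0 of 8 and 0 of 13 genes of the transcription factor, mucin folding and other secretory lists were called.

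The ethanol effect was also compared between the segments, as the effect in colon minus the effect in jejunum. In organoids this difference was 2.76 ± 0.54 for Tff3 (log2, SE; edgeR adjusted p = 0.00912) and 1.62 ± 0.46 for Agr2 (adjusted p = 0.0461), both called. Behind it, Tff3 lay above both controls in both ethanol colon organoid libraries and below all 4 controls in 3 of the 4 ethanol jejunum organoid libraries. These were 2 of 7 tested members, both with the higher effect in colon, where 9.49% of 13170 genes were called, 7.4% in that direction and 2.09% in the other. The difference was 2.15 ± 0.65 for Zg16, 1.74 ± 0.61 for Fcgbp and -6.05 ± 1.76 for Tff1, none of them called (adjusted p = 0.0602, 0.0958 and 0.0509). The Tff1 value rests on 5, 0, 0 and 0 counts in the control jejunum organoids, so its size carries little weight. Called with Tff3 and Agr2 were 2 of 8 goblet transcription factor genes, Atoh1 (adjusted p = 0.00812) and Klf4 (0.00912), 1 of 7 mucin folding genes (Ern2) and 3 of 14 other goblet secretory genes (Ramp1, Klk1 and Capn9), all in the same direction. Ern2, Ramp1, Klk1 and Capn9 had 0 counts in both control colon organoid libraries, and Atoh1 averaged 0.246 CPM there, so no size is given. From 0 counts an effect in colon could only be upward, and from the Atoh1 level there was little room below. The shared direction of these genes therefore carries no weight. Markers of other epithelial cell types were called in that direction as well: 2 of 7 general epithelial genes (Cldn7 and Epcam), 1 of 5 colonocyte genes (Guca2a), 2 of 6 enterocyte genes (Apoa1 and Sis), 1 of 8 Paneth genes (Itln1) and 2 of 6 enteroendocrine genes (Neurod1 and Scg5). Their part in the Tff3 and Agr2 differences was not tested. The member median was 1.62, against 0.17 over all genes.

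The Tff3 and Agr2 differences rest on 2 libraries in each colon organoid group, 4 in each jejunum organoid group and the shared spread of these 12. Colon organoids varied far more than jejunum organoids, so a shared spread gives colon too little and jejunum too much. The adjusted p-values of these differences may therefore be too small. By limma-voom with weights by group no member and no gene was called (adjusted p = 0.549 for Tff3 and 0.855 for Agr2), and in a fit of all 27 libraries Tff1 alone was called. The Agr2 call was also lost with DESeq2's size factors in edgeR (adjusted p = 0.0539) and without any single library other than control colon organoid 2 or control jejunum organoid 4. Zg16 became called without either control colon organoid library (adjusted p = 0.0227 and 3.01e-04) and by DESeq2 (0.0284), and Fcgbp by DESeq2 (0.0453) and without control jejunum organoid 1 (0.019). Tff1, whose difference runs the other way, also became called in edgeR with DESeq2's size factors, without scaling, with Rn45s kept or without the filter on low counts (adjusted p from 0.0417 to 0.0495), by DESeq2 (0.0109), and without control colon organoid 1, control colon organoid 2 or control jejunum organoid 1 (0.00667, 0.0385 and 0.0358). In tissue, 0 of 7 tested members differed in ethanol effect between the segments, and 0% of 13405 genes were called by edgeR, with 853 at an unadjusted p under 0.05 and 2 called by DESeq2. There the differences ran from -1.40 ± 0.64 for Fcgbp to 0.75 ± 1.10 for Tff3 among genes with counts in every group.

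The segments themselves differed in most of these genes. In control organoids, Spink4 had 38.3 and 52.6 CPM in colon and 1709, 2125, 1383 and 2007 CPM in jejunum. Agr2 had 8.84 and 20.8 CPM in colon against 274, 472, 390 and 238 CPM in jejunum, and Fcgbp 14.7 and 13.4 CPM against 176, 663, 505 and 357 CPM. Each of these genes, and Tff3, was lower in every colon organoid library than in any jejunum organoid library. The log2 differences of colon from jejunum were -5.67 ± 0.32 for Spink4, -5.20 ± 0.65 for Fcgbp, -4.97 ± 0.48 for Agr2 and -4.28 ± 0.59 for Tff3 (SE; edgeR adjusted p from 3.34e-04 to 0.00331). Tff1 went the other way, with 27 and 34 counts in colon and 5, 0, 0 and 0 in jejunum (6.14 ± 1.26, adjusted p = 0.0108). It passed the filter on low counts through the colon libraries only, so it could only be called higher. Zg16 (305 ± 294 CPM in colon, 222 ± 82.1 CPM in jejunum) and Spdef (10.9 ± 3.60 CPM and 19.6 ± 6.97 CPM) were not called.

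These were 4 members lower and 1 higher of 7 tested, where 38% of 11607 genes were called, 21.2% lower and 16.9% higher. Their median was -4.28, against -0.28 over all genes. In ethanol organoids 6 members were called of 7 tested, where 60.7% of 11879 genes were called, 29.5% higher and 31.2% lower: Spink4 (-5.13 ± 0.32), Fcgbp (-3.48 ± 0.24), Agr2 (-3.39 ± 0.21), Tff3 (-1.56 ± 0.20) and Spdef (-1.51 ± 0.41) were lower in colon, and Zg16 (2.17 ± 0.18) was higher. Tff1, at 5.02 ± 1.85 CPM in ethanol colon and 4.71 ± 4.41 CPM in ethanol jejunum organoids, was not called there. Of the other lists in control organoids, 3 of 8 goblet transcription factor genes were lower in colon (Atoh1, Creb3l4 and Gfi1), 1 of 7 mucin folding genes was higher (Chst4) and 2 were lower (Ern2 and C1galt1c1), and 5 of 14 other secretory genes were lower, led by Klk1, Slc12a8, Tpsg1 and Ramp1. Klk1, Slc12a8, Tpsg1, Ramp1, Ern2, Creb3l4 and Gfi1 had 0 counts in the control colon organoids. Of the gastric genes, Tff2 was higher in colon (11.8 ± 9.74 CPM against 1.56 ± 1.15 CPM; 2.66 ± 0.83, edgeR adjusted p = 0.0451). It had 38 and 4 counts in colon and 6, 3, 5 and 15 in jejunum. Tff2 passed the filter on low counts through the colon libraries, so it could only be called higher. Weights by group ended the calls of Agr2 and Fcgbp (limma-voom adjusted p = 0.123 and 0.336), and without control colon organoid 2 Zg16 (-1.43, edgeR adjusted p = 0.0299) and Spdef (-1.46, 0.0224) were called lower.

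In tissue, Agr2, Spdef and Spink4 were higher in colon than in jejunum. Agr2 had 1442, 1119, 675 and 1133 CPM in control colon tissue and 222, 156 and 109 CPM in control jejunum tissue (log2 difference 2.27 ± 0.34, SE; edgeR adjusted p = 3.84e-04). Spdef had 202, 94.7, 159 and 164 CPM in colon against 57.3, 29.2 and 32.5 CPM in jejunum (1.43 ± 0.31, adjusted p = 0.00343), and Spink4 had 1750, 902, 424 and 1220 CPM against 285, 313 and 244 CPM (1.45 ± 0.38, adjusted p = 0.0105). No colon library overlapped a jejunum library in these 3 genes. Zg16 was lower in colon, 1251 to 4180 CPM against 4547 to 7148 CPM (-1.64 ± 0.42, adjusted p = 0.0095). Tff3 (572 ± 246 CPM in colon, 656 ± 557 CPM in jejunum) and Fcgbp (1282 ± 474 CPM and 827 ± 310 CPM) were not called. The Spink4 call was lost without control jejunum tissue 3 (edgeR adjusted p = 0.0518) and that of Zg16 in a fit over all 15 tissue libraries (0.0723).

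Retnlb, the resistin-like peptide of the colon, had 141, 307, 7 and 257 counts in control colon tissue and 0, 3 and 0 counts in control jejunum tissue. The ratio of the pooled levels was 45.9, with an exact 95% interval of 15.7 to 223 that covers counting error only. It was called by edgeR (adjusted p = 0.0453), but not in a fit over all 15 tissue libraries, nor without control colon 1 or 4 or any of the 3 control jejunum tissue libraries (adjusted p from 0.0572 to 0.126). Retnlb passed the filter on low counts through the colon libraries, so it could only be called higher. In ethanol tissue Retnlb was in all 4 colon libraries and at 0 in all 4 jejunum libraries, at least 99.3-fold higher in colon at a floor of 3 counts over the jejunum group. The bound was 28.1-fold without ethanol colon tissue 1, the library with 51.9 CPM, and 57.6-fold without ethanol jejunum tissue 4. Its relative Retnla averaged 18.2 ± 10.2 CPM in control colon tissue and 3.45 ± 3.09 CPM in control jejunum tissue and was not called (edgeR adjusted p = 0.0549).

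In control tissue these were 4 members higher and 1 lower of 7 tested, where 43.7% of 12473 genes were called, 24.5% higher and 19.2% lower, and the median was 1.43 against 0.25 over all genes. In ethanol tissue, where 47.3% of 12421 genes were called, 24.9% higher and 22.4% lower, 4 were higher in colon, Agr2 (1.80 ± 0.46), Spdef (1.70 ± 0.45), Spink4 (1.10 ± 0.33) and Retnlb, and Zg16 was lower (-2.58 ± 0.77). Other goblet genes were mostly higher in control colon tissue. Of the goblet transcription factor genes, 6 of 8 were called, all higher, with Creb3l1 (3.32 ± 0.36), Creb3l4 (3.30 ± 0.42) and Foxa1 (3.16 ± 0.38) in front. Of the mucin folding genes 5 of 8 were higher, B3gnt6, a core glycosyltransferase, by 6.62 ± 0.67, and of the other secretory genes 10 of 14 were higher, among them Muc2 (12600 ± 5088 CPM in colon, 1293 ± 291 CPM in jejunum; 2.79 ± 0.39). The list medians were 1.72, 2.07 and 1.58. Smooth muscle genes were higher in colon too, 5 of 6, with sums of 3368 to 14030 CPM in colon and 521 to 1942 CPM in jejunum, and the epithelial marker sum was 4226 to 6705 CPM against 6764 to 8339 CPM; their part in these differences was not tested. Without control colon 1, the control library with Hoxb13, Agr2 (2.22), Spdef (1.39), Spink4 (1.24) and Zg16 (-1.34) were called and Retnlb was not.

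**Figure D5:**
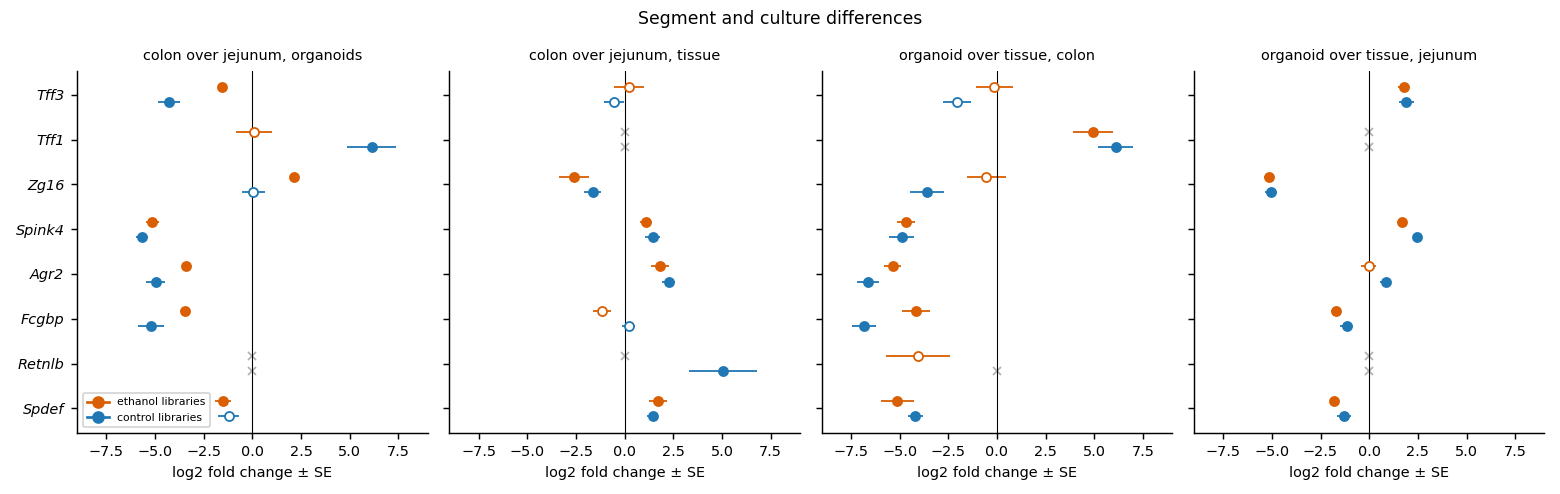
log2 fold change (points) with its SE (bars) of colon over jejunum and of organoid over tissue for each gene, ethanol libraries in orange above control libraries in blue. Filled points passed an adjusted p of 0.05, open points did not, and a grey cross marks a gene that was not tested or had 0 counts in 1 of the groups. Spink4, Agr2 and Fcgbp lie far below 0 in colon over jejunum organoids and in organoid over tissue in colon, while Spink4 and Agr2 lie above 0 in colon over jejunum tissue.

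Organoids were then compared with the tissue of the same segment. In control colon organoids Agr2 had 8.84 and 20.8 CPM against 675 to 1442 CPM in control colon tissue, a log2 difference of -6.62 ± 0.55 (SE; edgeR adjusted p = 0.00281). Fcgbp had 14.7 and 13.4 CPM against 783 to 1688 CPM (-6.83 ± 0.61, adjusted p = 0.0029), Spink4 38.3 and 52.6 CPM against 424 to 1750 CPM (-4.89 ± 0.64, adjusted p = 0.00555), and Spdef 8.35 and 13.4 CPM against 94.7 to 202 CPM (-4.19 ± 0.39, adjusted p = 0.0029). Every organoid library lay below every tissue library in these 4 genes. Zg16 had 97.2 and 513 CPM in organoids against 1251 to 4180 CPM in tissue (-3.59 ± 0.86, adjusted p = 0.0224). Tff1 was higher, with 27 and 34 counts in the organoid libraries and 2, 2, 0 and 1 in the tissue libraries (6.10 ± 0.90, adjusted p = 0.00715). With ethanol as in controls, Tff1 passed the filter on low counts through the organoid libraries only, so it could only be called higher. Tff3 had overlapping ranges, 73.2 and 302 CPM against 281 to 861 CPM (-2.06 ± 0.72, adjusted p = 0.0736), and Retnlb was at 0 in both organoid libraries, at least 38.8-fold lower than in tissue at 3 counts over the group, with an adjusted p of 0.0539. The bound was 24.2-fold without control colon tissue 2 and 11.1-fold without control colon organoid 1, and control colon tissue 3, at 1.92 CPM, lay near the floor of 1.05 CPM. Retnlb passed the filter on low counts through the tissue libraries only, so it could only be called lower in organoids.

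These were 5 members lower and 1 higher of 8 tested, where 29.7% of 13023 genes were called, 21% lower and 8.75% higher, with a median of -4.54 against -0.41 over all genes. The ethanol libraries gave Agr2 -5.36 ± 0.46, Spdef -5.13 ± 0.85, Spink4 -4.68 ± 0.48, Fcgbp -4.16 ± 0.72 and Tff1 4.95 ± 1.04, all called, where 30.2% of 13780 genes were called, 13.1% higher and 17.1% lower. Zg16 (1283 ± 45.4 CPM in ethanol colon organoids, 1823 ± 1654 CPM in ethanol colon tissue) and Tff3 (723 ± 45.5 CPM and 770 ± 927 CPM) were not called in the ethanol libraries. Among the other control colon lists, 5 of 8 goblet transcription factor genes, 4 of 8 mucin folding genes and 8 of 14 other secretory genes were lower in organoids and none was higher, with medians of -2.18, -1.97 and -4.91 (-4.34 with the 5 secretory genes at 0 put at their bound). Muc2 was among them, at 358 ± 431 CPM in organoids and 12600 ± 5088 CPM in tissue (-5.54 ± 1.10). Markers of absorptive cells lay lower as well. The colonocyte sum was 976 and 1841 CPM in control colon organoids and 3273 to 30050 CPM in control colon tissue (median -4.50, 1 of 5 called, Guca2a). The enterocyte sum was 33.4 and 69.7 CPM against 298 to 1185 CPM (median -3.34, 1 of 5 tested called, Fabp2), and the part of these cells in the members' values was not tested. With weights by group no member was called (limma-voom adjusted p from 0.0675 to 0.166 for the 6 genes), and the Zg16 call was also lost without control colon tissue 2, 3 or 4 (adjusted p = 0.0542, 0.0545 and 0.0566). Tff3 became called without control colon organoid 2 (-3.25, edgeR adjusted p = 0.0147) and Retnlb, which could only be called lower, without control colon tissue 3 (0.0396).

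In the jejunum the genes split by direction. Spink4 had 1709, 2125, 1383 and 2007 CPM in control organoids against 285, 313 and 244 CPM in control tissue (2.48 ± 0.23, SE; edgeR adjusted p = 9.58e-07), and Tff3 2053, 3337, 2686 and 2863 CPM against 362, 1298 and 308 CPM (1.91 ± 0.40, adjusted p = 0.00111). Both were higher in every organoid library. Zg16 was the largest difference among the members, 149 to 320 CPM in organoids against 4547 to 7148 CPM in tissue (-5.04 ± 0.31, adjusted p = 3.43e-08). Spdef (-1.29 ± 0.34, adjusted p = 0.00432) and Fcgbp (-1.17 ± 0.34, adjusted p = 0.0092) were lower in organoids, and Agr2 was higher (0.84 ± 0.27, adjusted p = 0.0149). The Agr2 call was lost without control jejunum organoid 2 or without control jejunum tissue 2 or 3, and the Fcgbp call without control jejunum tissue 2 (adjusted p from 0.0531 to 0.092).

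All 6 tested members were called, 3 higher and 3 lower, where 64.4% of 11269 genes were called, 35.5% higher and 28.9% lower. In the ethanol libraries, where 67.4% of 11135 genes were called, 34.3% higher and 33.1% lower, the values were 1.77 ± 0.30 for Tff3, 1.69 ± 0.26 for Spink4, -5.17 ± 0.25 for Zg16, -1.80 ± 0.23 for Spdef and -1.71 ± 0.27 for Fcgbp, all called, while Agr2 (284 ± 23.2 CPM in organoids, 235 ± 183 CPM in tissue) was not. The other goblet genes were also called in both directions, with 4 of 8 transcription factor genes higher in control organoids, led by Xbp1 (1.79 ± 0.20) and Foxa1 (2.63 ± 0.39), and 1, Klf4, lower (-2.11 ± 0.26). Of the mucin folding genes 2 of 7 were higher, Gcnt3 (3.51 ± 0.37) and Galnt12 (0.74 ± 0.26), and C1galt1c1 was lower (-0.67 ± 0.19). Of the other secretory genes 5 of 14 were higher, among them Klk1 (4.08 ± 0.51) and Slc12a8 (2.58 ± 0.34), and 6 were lower, among them Muc2 (131 ± 52.6 CPM in organoids, 1293 ± 291 CPM in tissue; -3.53 ± 0.33) and Clca3 (-1.70 ± 0.31). Atoh1 was at 24.5 ± 5.76 CPM and 23.7 ± 12.2 CPM (-0.15 ± 0.37). Smooth muscle genes summed to at most 0.98 CPM in control jejunum organoids and to 521 to 1942 CPM in tissue. Of the Paneth genes 5 of 8 were higher and 1 lower in organoids, with sums of 12320 to 17880 CPM against 8077 to 10560 CPM in tissue. Of the enteroendocrine genes 4 of 6 were higher and 1 lower, with sums of 370 to 736 CPM against 90.5 to 127 CPM, and of the enterocyte genes 1 of 6 was higher and 4 were lower, with sums of 3466 to 7724 CPM against 15610 to 20490 CPM. The part of these cell types in the members' differences was not tested.

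Set against each other across the 8 group means, Spink4 and Agr2 had the most alike profiles of the 7 members compared (root mean square difference 0.93 in centred log2 CPM), and Spink4 and Zg16 the least alike (2.89). Among 11117 genes compared, the nearest to Spink4 were Tpsg1 (0.37), Lyve1 (0.45) and Slc12a8 (0.49), of which Tpsg1 and Slc12a8 are in the list of other goblet secretory genes, and the nearest to Agr2 were Creb3l4 (0.41), Prelp (0.54) and Ror2 (0.56), of which Creb3l4 is in the list of goblet transcription factor genes. Nearest to Tff3 were Pmvk (0.30), Haus1 and Smim3, to Zg16 Herc6 (0.37), Ms4a7 and Irf1, and to Fcgbp Gm8989 (0.37), Cyp2d22 and As3mt. Nearest to Spdef were Ccl6 (0.38), Klhl23 and Kcnk6, and to Retnlb Lims2 (0.51), Hoxd10 and Vat1l. The groups share libraries of one series, and Tff1, whose mean was under 5 CPM, was not compared.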

How the data were processed

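Lexogen QuantSeq 3′ mRNA libraries were made from total RNA, per the labels' protocols. The deposited table holds whole-number counts per gene for 27 libraries. Trimmomatic 0.32, BWA, HTSeq, limma, edgeR and mm10 are named, without roles, in the submitters' processing notes. No source names the strand setting. A deposited normalized table was not used.

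Rn45s, 18.3% to 84.3% of counts, was left out. CPM are counts scaled to 1000000 outside it. Each comparison was fitted on the groups compared alone (differences of effects on the 4 groups of that sample type) with edgeR 4.0.16 (TMM, filterByExpr, robust quasi-likelihood; R 4.3.3) and Benjamini-Hochberg adjustment over all tested genes, called under 0.05. Separate fits were used because colon organoids varied far more than jejunum organoids. Floors are 3 counts over a group, and floors and intervals cover counting error only.

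The 8 genes, the lists and the fits were chosen with earlier results of these data known. Named genes are all 8 members and, per list and comparison, up to 4 called genes a direction by p, or up to 2 uncalled, with Muc2, Clca1 or Clca3, and Atoh1. Likeness used log2(CPM + 1) group means of genes averaging at least 5 CPM. Alternatives used DESeq2 1.42.0, limma 3.58.1, other scaling, filters and libraries. Donor numbers were not taken to pair libraries.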

Additional observations from a re-analysis of the deposited data

Results flagged for a closer look

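In 4 of 36 combinations of a goblet cell gene and a group of 4 libraries with differing values, a single library stood apart from the other 3. The rule was the ratio of its gap to the group's range. It flags about 1 in 20 for normally distributed values. CPM need not be so distributed, and the 36 combinations share libraries, so that rate is no test here. Ethanol colon tissue 4 had 2147 CPM of Tff3, against 188 to 492 CPM in the other 3. Ethanol colon tissue 1 had 51.9 CPM of Retnlb, against 2.34 to 8.06 CPM. Ethanol jejunum tissue 4 had 505.5 CPM of Agr2, against 113 to 177 CPM. Control jejunum organoid 1 had 0.921 CPM of Tff1, which is 5 counts, against 0 in the other 3. A gene at 0 counts in 3 of 4 libraries is always flagged by this rule, so the Tff1 flag carries no information.

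In organoids the edgeR fit, with a spread shared by all 12 libraries, called a difference in ethanol effect between colon and jejunum for Tff3 and Agr2. Colon organoids varied far more than jejunum organoids, so the p-values of this shared fit may be too small. The difference was 2.76 for Tff3 and 1.62 for Agr2 on the log2 scale (colon minus jejunum, edgeR adjusted p = 0.00912 and 0.0461). Neither was called by limma-voom with weights by group (adjusted p = 0.549 and 0.855) or in an edgeR fit of all 27 libraries (adjusted p = 0.118 and 0.157). The Tff3 value lay between 2.10 and 3.92 with each of the 12 libraries left out in turn and was called each time, and the Agr2 value lay between 1.12 and 2.13, with adjusted p-values from 0.00823 to 0.146.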

How the results depend on the processing

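Over all alternatives, the calls of single members were kept in 340 cases, lost in 51 and turned in direction in 1, and uncalled values stayed uncalled in the same direction in 669 cases, became called in 40 and changed sign in 43. Colon organoids hold 2 libraries a group and the shallowest controls (818240 and 2036195 counts outside Rn45s). The cause of each change below was not tested.

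For ethanol in colon organoids, 0 genes were called in the edgeR fit reported, against 2244 with a shared spread (4 members), 156 without a filter, 134 by DESeq2, 105 by limma-voom with weights by group and 176 with the replicate block (2 members each, Tff3 and Zg16; adjusted p = 1.34e-04 and 6.62e-06 with the block). Leaving out 1 library gave 24 to 1475 genes and 0 to 2 members. In colon tissue 1 gene was called with a shared spread, 10 by DESeq2, 88 without the 3 Hoxb13 libraries (chosen after seeing the data) and 0 to 1 without 1 library. In jejunum organoids it was 3 without a filter, 9 by DESeq2 and 0 to 4 without 1 library. In jejunum tissue it was 0 with a shared spread, 29 without a filter, 5 by DESeq2, 2 by limma-voom, 8 with the block and 0 to 5 without 1 library.

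For the colon minus jejunum ethanol effect in organoids, 1 member was called in the fit of 27 libraries, 5 members and 2158 genes by DESeq2, 0 and 0 by limma-voom, 1 and 423 with the block, and 1 to 4 members and 704 to 4820 genes without 1 library. In tissue it was 2 genes by DESeq2 and 0 to 1 without 1 library. Colon against jejunum organoids gave 3 members and 1041 genes by limma-voom, 208 genes with the block, 7210 with ethanol libraries and 2910 to 8607 without 1 library. Tissue gave 3 members with a shared spread, 3373 genes with the block and 3 to 5 members without 1 library. Organoid against tissue in colon gave 6768 genes with a shared spread, 0 members and 165 genes by limma-voom, 3 members and 156 genes with the block, and 2192 to 8181 genes without 1 library.

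Direction changed as follows (log2). By limma-voom: Spink4 0.0595 (colon organoid ethanol), Tff3 -0.26 and Spdef -0.0427 (colon tissue ethanol), Tff3 -0.0139 (difference of effects in tissue) and Zg16 -0.40 (colon against jejunum organoids). With the replicate block: Tff3 -0.20 and Spdef -0.0556 (colon tissue), Spink4 -0.0886, Agr2 -0.10 and Spdef 0.0789 (jejunum tissue), Zg16 -0.30 (colon against jejunum organoids) and Fcgbp -0.0175 (colon against jejunum tissue). Without the Hoxb13 libraries: Zg16 0.0318 and Spink4 0.12 (colon tissue). With ethanol libraries: Tff3 0.23 and Fcgbp -1.17 (colon against jejunum tissue) and Agr2 -0.0242 (organoid against tissue in jejunum). Leaving out 1 library gave, for ethanol, Spink4 -0.17 to 0.13 in colon organoids; Spink4 -0.42 to 0.10, Agr2 -0.11 to 0.25, Spdef -0.43 to 0.49 and Tff3 -0.96 to 0.78 in colon tissue; Fcgbp -0.24 to 0.30 in jejunum organoids; and Spdef -0.32 to 0.30, Tff3 -0.74 to 0.42, Spink4 -0.12 to 0.31 and Agr2 -0.20 to 0.84 in jejunum tissue. It gave Spdef -1.04 to 0.12 for the difference of effects in organoids, and Spdef -0.41 to 0.51, Tff3 -0.65 to 1.09 and Agr2 -0.84 to 0.26 in tissue. For colon against jejunum it gave Zg16 -1.43 to 0.75 in organoids and Tff3 -0.85 to 0.27 in tissue. Without control jejunum tissue 2 Retnlb was at 0 in every jejunum tissue library, so its difference of effects has no value there.

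TMM moved the median of all genes, against no scaling, by 0.25 for ethanol in colon organoids, 0.24 for the difference of effects in organoids, -0.31 and -0.48 for colon against jejunum in organoids and tissue, and -0.31 and -0.23 for organoid against tissue in colon and jejunum. The share of calls that were higher was 78% with TMM and 60.3% without for the difference of effects in organoids, 44.3% and 54.7% for colon against jejunum organoids, 56.1% and 76.2% for tissue, and 29.5% and 41.4% for organoid against tissue in colon. Without scaling the call of Agr2 in the difference of effects was lost (adjusted p = 0.102) and Tff1 there (0.0417) and Retnlb in colon organoids against tissue (0.0492) were called.

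Same-numbered libraries deviated together in some pairs and not in others (correlation of deviations across 11117 genes 0.586, -0.075, 0.549 and 0.18 in colon tissue; 0.322, 0.0823, 0.179 and -0.168 in jejunum organoids; 0.106, 0.0774 and 0.116 in jejunum tissue), and donor numbers recur under both treatments, so the numbers were not taken to pair libraries. With the replicate block the calls of Agr2 (difference of effects in organoids, adjusted p = 0.0893), of Tff1 and Spink4 (colon against jejunum organoids and tissue) and of Tff1, Zg16 and Spdef (organoid against tissue in colon) did not pass.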
